A study of Mus musculus with 8 samples.

Results

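Fatty acids are built, lengthened, desaturated and tied to coenzyme A by a set of enzymes whose messages were followed here in mouse epidermis with and without an epidermal deletion of *Rora*, the gene of the nuclear receptor RORα. The group holds 36 genes of fatty acid synthesis, elongation and activation. They were chosen by symbol from what the enzymes do, and each was found through its Ensembl identifier in the GENCODE mouse annotation among the 55416 genes of the count table. The filter on low counts kept 34 of them.

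Cytosolic synthesis starts from acetyl-CoA, which ATP citrate lyase makes from citrate. Acetyl-CoA carboxylase turns it into malonyl-CoA, and fatty acid synthase joins these units into palmitate. Palmitate is then lengthened in the endoplasmic reticulum by a cycle of condensation, reduction, dehydration and reduction, double bonds are put in by desaturases, and acyl-CoA synthetases and fatty acid transport proteins activate fatty acids taken up or set free in the cell. In the epidermis these steps feed the very long fatty acids of the ceramides that seal the outer barrier, and in the sebaceous gland they feed sebum.

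The libraries came from the dorsal epidermis of mice at postnatal day 4, with 4 labelled WT (the control libraries A1, B1, C1, C6) and 4 of the *Rora* mutant genotype (the RoraEKO libraries A3, B4, C2, C3). RoraEKO mice came from a cross of *Rora* flox/flox mice with a strain carrying Cre under the K14 promoter, which is active in basal keratinocytes and in the hair follicle and sebaceous gland that arise from them. Epidermal sheets were lifted off the dermis after brief heating, so hair follicle and sebaceous gland cells could be present. The labels do not say whether the control mice carried the floxed allele or Cre, nor whether each library was 1 mouse, and the p-values measure the spread between these samples.

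Library totals ran from 17286903 to 26705533 counts. *Rora* itself stood at 154 to 237 counts per 1000000 (CPM) in the RoraEKO libraries and 158 to 309 CPM in the controls, so the gene-level count, which does not resolve the deleted exons, did not separate the genotypes. Control C1 and C6 expressed *Xist* at 416 and 527 CPM and had no *Ddx3y* counts, whereas the other 6 libraries had *Ddx3y* and almost no *Xist*. The spinous keratins *Krt1* and *Krt10* ran from 17165 to 52399 CPM, against 61.1 to 706 CPM for the basal keratins *Krt5* and *Krt14*. Both basal keratins were highest in RoraEKO B4. There 6 basal markers summed to 1244 CPM, against 302 to 410 CPM in the other RoraEKO libraries and 281 to 628 CPM in controls. Most of the sum in B4 was *Krt5* and *Krt14*, while the basal keratin *Krt15* was lowest there (55.4 CPM). The summed CPM of the 5 spinous markers ran from 42234 to 67837 in controls and from 83873 to 105006 in RoraEKO. Most of this sum was *Krt1* and *Krt10* (edgeR adjusted p 0.287 and 0.274). *Dsg1a* and *Sbsn* had log2 fold changes of 0.02 and -0.04, and *Dsc1* had one of 0.37 (edgeR adjusted p 0.57). None of the 5 was called by edgeR, 1 had an unadjusted p under 0.05 and DESeq2 called 2. The summed CPM of 7 granular markers overlapped, at 9549 to 13323 in controls and 10474 to 14008 in RoraEKO. None of the 7 was called by edgeR, 1 had an unadjusted p under 0.05 and DESeq2 called 1. *Tgm1* and *Tgm3* were higher in every RoraEKO library than in any control (log2 fold change 0.70 and 0.46, edgeR adjusted p 0.0578 and 0.294). *Ivl* had a log2 fold change of -0.41 (edgeR adjusted p 0.318), and the others ran from -0.20 to 0.27. The part of these levels in the results below was not tested. Of the other cells the samples could hold, 5 erythroid markers summed to 47.8 to 334 CPM in controls and 125 to 1041 CPM in RoraEKO, 5 melanocyte markers to 25.2 to 56.2 CPM and 17.3 to 33.2 CPM, fibroblast markers to at most 10.4 CPM in any library, and 9 adipocyte markers to 93.2 to 398 CPM in controls and 172 to 252 CPM in RoraEKO. Nearly all of the adipocyte sum came from *Fabp4* (59.2 to 299 CPM, highest in A1) and *Lipe* (33 to 110.3 CPM). The other markers of that list were each at most 1.44 CPM in any library, the highest being *Retn* in A3.

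Most of the pathway did not pass the test. Of the 34 genes tested, 3 were lower in RoraEKO (*Acsl4*, *Acsl6* and *Slc27a1*), 1 was higher (*Hacd4*) and 30 passed in neither direction. A call needed a Benjamini-Hochberg adjusted p below 0.05 in the edgeR quasi-likelihood test over all 13147 genes tested and a fold change above 1.5. Over all genes tested, 3.22% were called lower, 2.3% higher and 5.51% in either direction, while 11.8% of the fatty acid genes were called in either direction. The single higher gene was thus near the background, and no test of the list was made. The median log2 fold change was -0.04 for the fatty acid genes and -0.04 for all genes tested, with 20 of the 34 below 0 and 14 above. In whole tissue, fewer cells of a type and less RNA per cell cannot be told apart. For 7 genes (3 of synthesis, 2 elongases and 2 other enzymes of the elongation cycle), the 95% interval of the difference of mean log2 CPM lay wholly within a 1.5-fold change either way. The plot of differences shows these narrow intervals beside the wide ones of *Scd3*, *Fads3*, *Elovl3* and *Acsl6*.

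**Figure D1:**
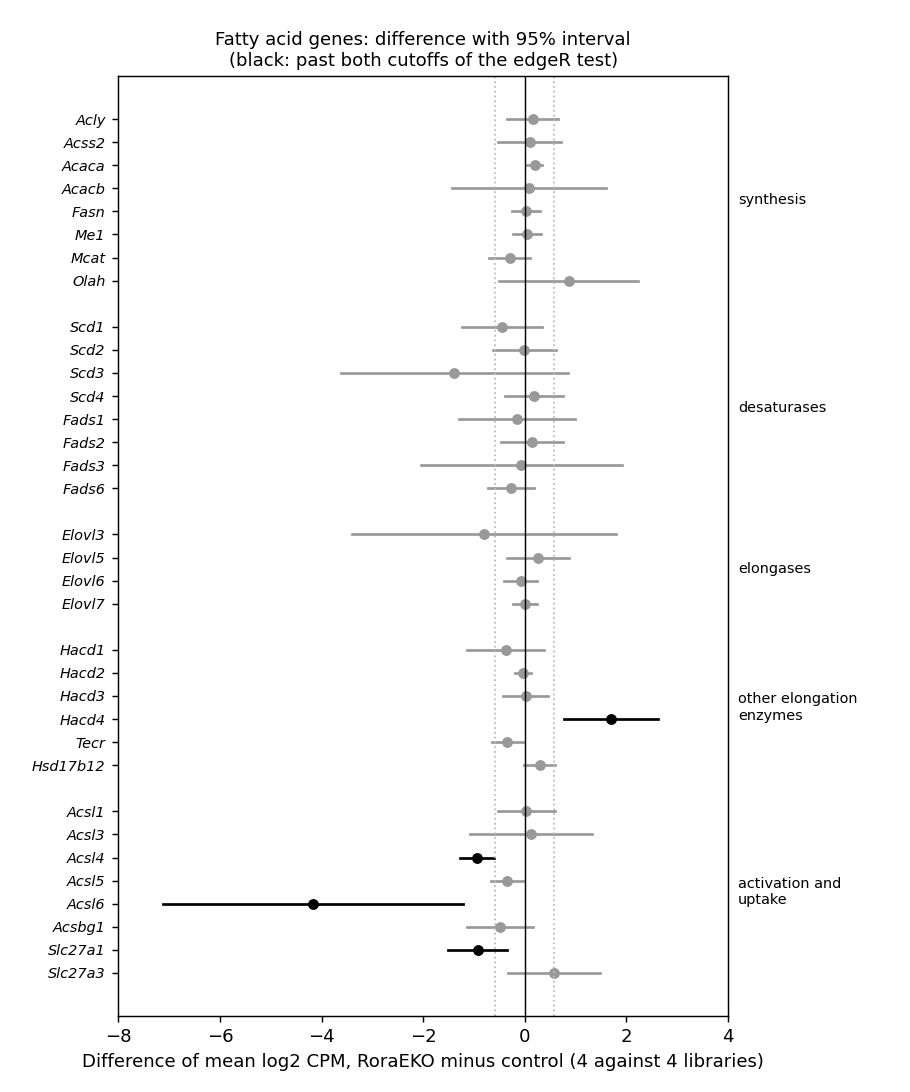
Difference of mean log2 CPM, RoraEKO minus control, for the 34 tested genes grouped by role. Points are the difference of 4 against 4 libraries, horizontal lines its 95% interval, dotted lines a 1.5-fold change, and black marks the 4 genes past both cutoffs; *Acsl4*, *Acsl6* and *Slc27a1* lie left of 0 and *Hacd4* right of it.

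The activation enzymes held all 3 genes called lower, 3 of 8 tested, and their median log2 fold change was -0.42. Over all genes tested, 3.22% were called lower and the median was -0.04. No test of this role was made. The count of 3 became 1 with the *Xist* level as a covariate and 0 without the control libraries with *Xist*. *Acsl4* codes for an acyl-CoA synthetase that favours arachidonic and other polyunsaturated fatty acids. It stood at 17.8, 19.1, 18.7 and 22.1 CPM in control A1, B1, C1 and C6 and at 12.4, 10.6, 8.77 and 8.84 CPM in RoraEKO A3, B4, C2 and C3. Every control library was thus above every RoraEKO library. The mean fell from 19.4 ± 1.88 to 10.2 ± 1.72 CPM (SD, n = 4 each), 1.92-fold, with a log2 fold change of -0.94 (SE 0.14) and an edgeR adjusted p of 0.00568. *Acsl4* lies on the X chromosome (GRCm39, X:141100840-141173789, minus strand), and it kept its call under 20 of 21 alternative settings, each left-out library included. The exception was the fit without the 2 control libraries with *Xist*, where the log2 fold change was -0.81 and the edgeR adjusted p 0.0762.

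*Slc27a1* codes for fatty acid transport protein 1, a membrane protein that takes up long-chain fatty acids and couples them to coenzyme A (GRCm39, 8:72021095-72041866, plus strand). Its level was 17.9, 14.7, 12.7 and 17.5 CPM in control A1, B1, C1 and C6 and 8.09, 5.42, 10.02 and 10.04 CPM in RoraEKO A3, B4, C2 and C3. The genotypes did not overlap, and B4 was the lowest library. The mean fell from 15.7 ± 2.47 to 8.39 ± 2.18 CPM, 1.87-fold, with a log2 fold change of -0.91 (SE 0.24) and an edgeR adjusted p of 0.0355. This call was lost when A1, A3, B1, C2, C3 or C6 was left out (edgeR adjusted p 0.0556 to 0.0913), and with the *Xist* level as a covariate (log2 fold change -0.96, edgeR adjusted p 0.0859).

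*Acsl6*, an acyl-CoA synthetase best known from brain, where it serves docosahexaenoic acid, had the widest difference of the group (GRCm39, 11:54194352-54255587, plus strand). Controls A1, B1, C1 and C6 stood at 6.13, 14.6, 14 and 27.5 CPM, from 161, 267, 295 and 732 counts. RoraEKO A3, B4, C2 and C3 stood at 0.522, 0, 2.17 and 2.6 CPM, from 8, 0, 45 and 52 counts. The genotypes did not overlap, control C6 was the highest and B4 had no count, which at its depth allows up to 0.123 CPM. The mean fell from 15.5 ± 8.84 to 1.32 ± 1.26 CPM, 11.8-fold, with a log2 fold change of -3.55 and an edgeR adjusted p of 0.0352. The difference of mean log2 CPM was -4.16 (SE 1.21), with a 95% interval from -7.11 to -1.21. The call was lost when A3, B1, C1, C2, C3 or C6 was left out (edgeR adjusted p 0.0569 to 0.087) and with the *Xist* level as a covariate (log2 fold change -2.89, edgeR adjusted p 0.114).

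The other 5 activation genes did not pass the test. *Acsbg1*, which codes for the bubblegum acyl-CoA synthetase of long and very long chains, was the most abundant activation gene per kilobase of exon. It measured 291, 328, 308 and 520 CPM in control A1, B1, C1 and C6 and 182, 234, 323 and 287 CPM in RoraEKO A3, B4, C2 and C3. The genotypes overlapped through C2, control C6 stood far above the rest, and the log2 fold change of -0.50 had an edgeR adjusted p of 0.316. Without C6 the log2 fold change was -0.24, and with the *Xist* covariate -0.25. *Acsl5*, of the outer mitochondrial membrane and endoplasmic reticulum, ran from 164 to 195 CPM in controls and from 113 to 169 CPM in RoraEKO (log2 fold change -0.34, edgeR adjusted p 0.231). *Acsl3*, of lipid droplets, had a mean of 20 ± 12.2 CPM in controls and 19.6 ± 5.68 CPM in RoraEKO. *Acsl1*, the major long-chain synthetase of fat and liver, had a mean of 331 ± 84 CPM in controls and 330.2 ± 44 CPM in RoraEKO. *Slc27a3*, of the fatty acid transport protein family, was the single activation gene with a log2 fold change above 0 (0.60, edgeR adjusted p 0.412).

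**Figure D2:**
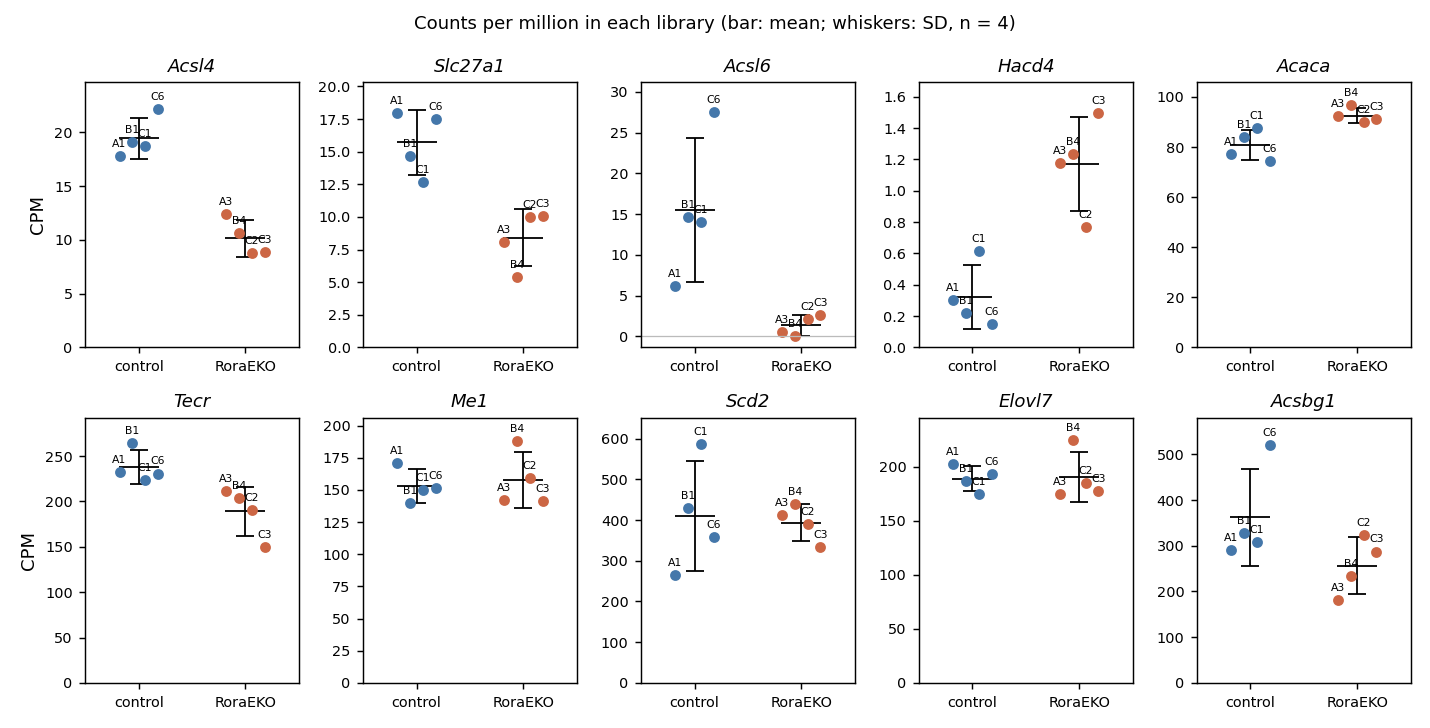
CPM in each library for the 4 called genes, for *Acaca* and *Tecr*, whose genotypes did not overlap, and for the most abundant synthesis, desaturase, elongase and activation gene per kilobase. Labelled points are libraries, the wide bar the mean and the whiskers the SD (n = 4); the control points of *Acsl4*, *Slc27a1* and *Acsl6* all lie above the RoraEKO points, those of *Hacd4* all below, and those of *Me1*, *Scd2*, *Elovl7* and *Acsbg1* overlap.

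Within the family of 5 long-chain acyl-CoA synthetases, levels were compared per kilobase of exon. *Acsl6* made up 0.996% to 4.09% of the family's summed CPM per kilobase in controls and 0% to 0.498% in RoraEKO. The share of *Acsl4* was 5.25% to 6.08% in controls and 3.12% to 4.34% in RoraEKO. *Acsl1* and *Acsl5*, neither of them called, made up most of the family in every library. The shares rest on the same CPM, in which *Acsl4* and *Acsl6* already did not overlap between genotypes. That their share ranges did not overlap either was thus nearly fixed in advance and is no further evidence. Summed over all 8 activation genes, the mean level was 116 CPM per kilobase in controls and 90.1 CPM per kilobase in RoraEKO, a description in which *Acsbg1*, not called, weighed most (55.1 ± 16.2 and 39.1 ± 9.39 CPM per kilobase).

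**Figure D3:**
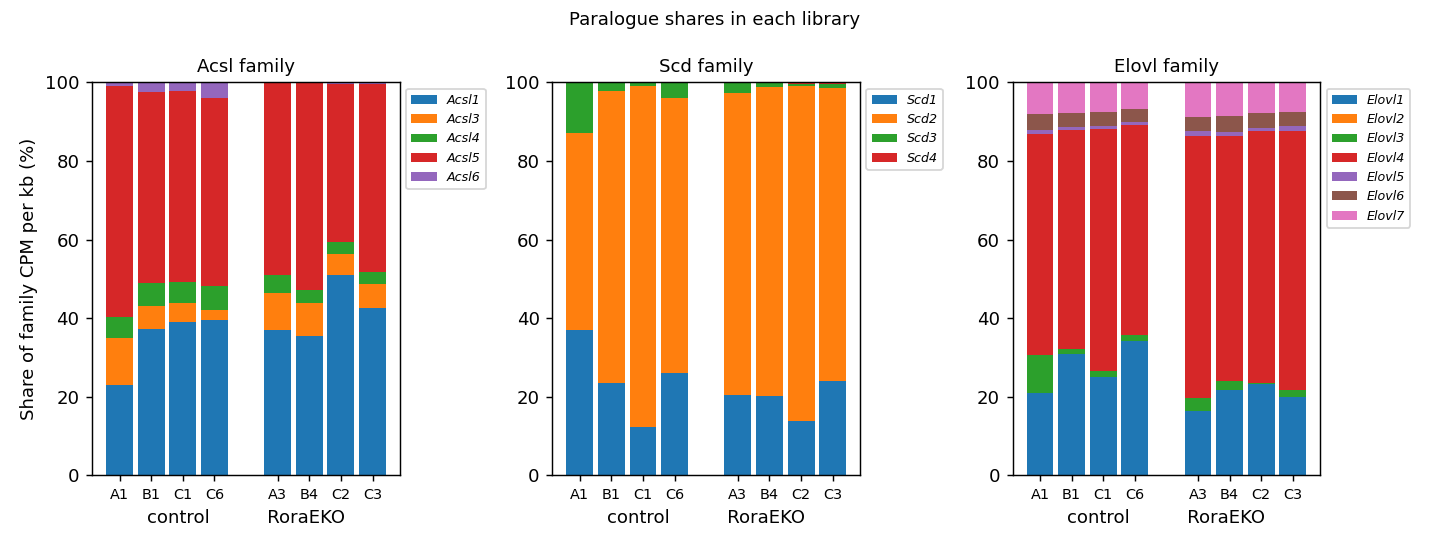
Share (%) of each paralogue in the summed CPM per kilobase of its family, in each library, for the Acsl, Scd and Elovl families. Bars are libraries, control at left and RoraEKO at right in each panel; *Acsl1* and *Acsl5* fill most of the Acsl bars, control A1 has the largest *Scd3* share (12.5%), and *Elovl4* is the largest part of every Elovl bar.

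*Hacd4* was the only gene of the elongation cycle past both cutoffs. It codes for a member of the 3-hydroxyacyl-CoA dehydratase family, whose enzymes carry out the dehydration step of the cycle (GRCm39, 4:88314381-88357202, minus strand). It was a scarce message, with 8, 4, 13 and 4 counts in control A1, B1, C1 and C6 and 18, 30, 16 and 30 counts in RoraEKO A3, B4, C2 and C3. In CPM these were 0.305, 0.219, 0.615 and 0.15 against 1.17, 1.23, 0.771 and 1.5. The genotypes did not overlap, but control C1 and RoraEKO C2 lay close together. The mean rose from 0.322 ± 0.205 to 1.17 ± 0.3 CPM, 3.63-fold, with a log2 fold change of 1.85 and an edgeR adjusted p of 0.044. Each library left out other than C1 ended this call (edgeR adjusted p 0.0509 to 0.133 without A1, A3, B1, B4, C2, C3 or C6), as did the *Xist* covariate (log2 fold change 2.11, edgeR adjusted p 0.117). *Focad*, which overlaps the *Hacd4* exons on the opposite strand, had a log2 fold change of 0.37 with an edgeR adjusted p of 0.354, and the strand setting of the counting was not stated in the sources used here. *Hacd4* made up 0.124% to 0.444% of the summed level per kilobase of the 4 dehydratase genes in controls and 0.599% to 1.25% in RoraEKO. These shares rest on the same counts and are no further evidence.

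*Tecr*, the enoyl reductase that closes each round of elongation, was the most abundant gene of the group per kilobase (69.6 CPM per kilobase in controls). It measured 232, 265, 224 and 231 CPM in control A1, B1, C1 and C6 and 211, 204, 190 and 150 CPM in RoraEKO A3, B4, C2 and C3. No RoraEKO library reached the lowest control, yet the log2 fold change of -0.33 did not pass the test (edgeR adjusted p 0.243). Genotypes did not overlap for 6 of the 34 genes (17.6%), against 12.9% of all genes tested. *Hsd17b12*, the ketoacyl reductase of the same cycle, ran from 85.3 to 105 CPM in controls and from 103 to 143 CPM in RoraEKO (log2 fold change 0.30, edgeR adjusted p 0.283). *Hacd2*, the dehydratase with the highest level here, differed by a log2 fold change of -0.03, and its mean was 64.1 ± 4.2 CPM in controls and 62.8 ± 3.74 CPM in RoraEKO. Its paralogue *Hacd3* had means of 55.1 ± 12 and 55.2 ± 7.03 CPM, and *Hacd1* a log2 fold change of -0.40 (edgeR adjusted p 0.649).

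The libraries with *Xist* were both controls, so the 4 called genes were also compared among the 6 libraries without it, 2 control and 4 RoraEKO. The log2 fold changes were -0.81 for *Acsl4*, -0.91 for *Slc27a1*, -2.92 for *Acsl6* and 2.17 for *Hacd4*, and none passed the test (edgeR adjusted p 0.0762, 0.116, 0.189 and 0.0784). Libraries also share a letter in their titles, whose meaning the labels do not give. Within letters A, B and C, the difference of log2 CPM, RoraEKO minus control, was -0.52, -0.85 and -1.20 for *Acsl4*. For *Slc27a1* it was -1.14, -1.42 and -0.57, and for *Hacd4* 1.67, 2.09 and 1.5. For *Acsl6* it was -3.34, -7.31 and -3.00, where the value of letter B rests on a library with 0 counts and so on the prior count. Since these genes did not overlap between genotypes, the sign within each letter was fixed in advance, and only the sizes are of use.

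RORα binds the hexamer AGGTCA preceded by an AT-rich stretch. Promoter windows are shown for the 2 called genes that held this hexamer, *Acsl6* and *Hacd4*, and for *Fads6*, the only gene of the group that held the longer TAGGTCA. Sequences are RefSeq windows on GRCm38.p6 from 250 bases before to 50 bases after an annotated start, 5′ to 3′ on the gene's strand, with AGGTCA or its reverse complement TGACCT in capitals. The *Acsl6* window is chr11:54303574-54303873 (plus strand), the *Hacd4* window chr4:88438866-88439165 (minus strand) and the *Fads6* window chr11:115297513-115297812 (minus strand).
Acsl6: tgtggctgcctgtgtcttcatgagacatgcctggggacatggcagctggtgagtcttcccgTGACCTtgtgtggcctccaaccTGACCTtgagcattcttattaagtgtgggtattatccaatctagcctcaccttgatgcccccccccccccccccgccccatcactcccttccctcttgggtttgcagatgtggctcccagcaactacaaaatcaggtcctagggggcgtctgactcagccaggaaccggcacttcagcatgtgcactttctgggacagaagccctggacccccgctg
Hacd4: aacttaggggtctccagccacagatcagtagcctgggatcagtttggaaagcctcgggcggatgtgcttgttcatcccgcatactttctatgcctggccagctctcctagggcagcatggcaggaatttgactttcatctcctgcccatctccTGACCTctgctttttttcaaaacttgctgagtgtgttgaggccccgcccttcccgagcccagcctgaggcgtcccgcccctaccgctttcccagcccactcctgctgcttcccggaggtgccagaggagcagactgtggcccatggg
Fads6: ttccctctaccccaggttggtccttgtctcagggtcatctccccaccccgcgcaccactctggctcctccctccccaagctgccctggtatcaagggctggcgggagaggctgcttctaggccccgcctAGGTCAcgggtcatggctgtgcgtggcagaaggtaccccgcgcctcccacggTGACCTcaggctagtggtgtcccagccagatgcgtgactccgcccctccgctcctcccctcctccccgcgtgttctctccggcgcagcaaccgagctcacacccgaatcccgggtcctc
The capitals start at positions -189 and -167 in *Acsl6*, at -97 in *Hacd4* and at -121 and -69 in *Fads6*, counted from the annotated start. The other 2 *Acsl6* windows, the *Acsl4* window and the 3 *Slc27a1* windows held no AGGTCA in either orientation. Of the 36 genes, 31 had a window in the RefSeq table, 38 windows in all. AGGTCA was found on either strand in 15.8% of these windows and in 16.3% of all 32851 windows, and the longer TAGGTCA, which contains it, in 2.63% and 2.61%. The message of *Fads6* was not called (log2 fold change -0.27). Among other motifs, searched on both strands, the sterol element TCACNCCAC was in 2.63% of the group's windows and 1.24% of all, the E-box CACGTG in 7.89% and 7.15%, CCAAT in 52.6% and 37.4%, and the GC box GGGCGG in 60.5% and 35.7%. These are letter matches in short windows and not measured binding.

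None of the 8 tested synthesis genes was called by edgeR, 0 had an unadjusted p under 0.05, and 0 were called by DESeq2. Over all genes tested, 5.51% were called by edgeR, 18.2% had such a p and 7.84% were called by DESeq2. With so few genes, counts of 0 were near these shares. *Fasn*, the fatty acid synthase that builds palmitate, stood at 147, 127, 139 and 136 CPM in control A1, B1, C1 and C6 and at 128, 172, 127 and 134 CPM in RoraEKO A3, B4, C2 and C3. The genotypes overlapped, B4 was the highest library, and the 95% interval of the difference of mean log2 CPM ran from -0.25 to 0.29. *Acaca*, the acetyl-CoA carboxylase that makes malonyl-CoA for synthesis, stood at 77.4, 84.1, 87.7 and 74.4 CPM in control A1, B1, C1 and C6 and at 92.3, 96.9, 90.1 and 91 CPM in RoraEKO A3, B4, C2 and C3. Every RoraEKO library was above every control, but the log2 fold change of 0.20 had an edgeR adjusted p of 0.359. *Me1*, the malic enzyme that supplies NADPH, was the most abundant synthesis gene per kilobase, at 171, 140, 150 and 151 CPM in control A1, B1, C1 and C6 and 142, 188, 159 and 142 CPM in RoraEKO A3, B4, C2 and C3. Its genotypes overlapped, and the interval of the difference ran from -0.24 to 0.32. *Acly*, the citrate lyase that opens the pathway, had a log2 fold change of 0.13 (edgeR adjusted p 0.804). *Acss2*, *Acacb*, *Mcat* and *Olah*, which code for acetyl-CoA synthetase, the mitochondrial carboxylase, the mitochondrial malonyl transferase and the thioesterase that ends synthesis at medium chains, had log2 fold changes from -0.30 to 1.03. The largest of these, *Olah*, rested on 3 to 16 counts in controls and 5 to 30 counts in RoraEKO. *Thrsp*, a thyroid hormone responsive gene of lipogenesis, had at most 5 counts in any library and was not tested.

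The 8 desaturase genes were all tested and none was called by edgeR or by DESeq2, with 1 at an unadjusted p under 0.05 and a median log2 fold change of -0.30. For so few genes these counts were near the shares of all genes tested (5.51%, 7.84% and 18.2%). *Scd2*, a stearoyl-CoA desaturase that makes oleate and palmitoleate, was the dominant desaturase message at 54.5 ± 18 CPM per kilobase in controls. It measured 266, 431, 587 and 358 CPM in control A1, B1, C1 and C6 and 413, 439, 390 and 333 CPM in RoraEKO A3, B4, C2 and C3. The RoraEKO libraries lay within the control range, and the log2 fold change was -0.06. *Scd1* ran from 79.6 to 187 CPM in controls and from 60.9 to 108 CPM in RoraEKO (log2 fold change -0.47, edgeR adjusted p 0.402). *Scd3*, a sebaceous paralogue of the same gene cluster on chromosome 19, was the gene with that p (0.0315), with an edgeR adjusted p of 0.214. How the counting assigned reads shared by Scd paralogues was not examined here. *Fads1*, *Fads2*, *Fads3* and *Fads6*, of the fatty acid desaturase family, also passed in neither direction, nor did *Scd4* (log2 fold change 0.13).

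The elongases condense malonyl-CoA with a growing chain. Of the 4 tested, none was called by edgeR or by DESeq2 and 0 had an unadjusted p under 0.05. For so few genes these counts too were near the shares of all genes tested (5.51%, 7.84% and 18.2%). *Elovl7* was the most abundant elongase of the group per kilobase (33.1 CPM per kilobase in controls), at 203, 187, 175 and 193 CPM in control A1, B1, C1 and C6 and 175, 224, 185 and 177 CPM in RoraEKO A3, B4, C2 and C3. Its genotypes overlapped and the interval of the difference ran from -0.23 to 0.24. *Elovl6*, which lengthens palmitate to stearate, ran from 125 to 154 CPM in controls and from 108 to 157 CPM in RoraEKO, with a log2 fold change of -0.07. *Elovl5* had a log2 fold change of 0.22, and *Elovl2*, with 0 counts in 6 of 8 libraries, was not tested. Set beside the other 2 elongases of the mouse, which are no members of the group, *Elovl4* made up 53.6% to 61.7% of the summed level per kilobase of the 7 in controls and 62.4% to 66.7% in RoraEKO, and *Elovl1* made up 20.9% to 34.2% and 16.5% to 23.2%. Neither gene passed the test (log2 fold change 0.07 for *Elovl4* and -0.56 for *Elovl1*, whose edgeR adjusted p was 0.253).

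**Figure D4:**
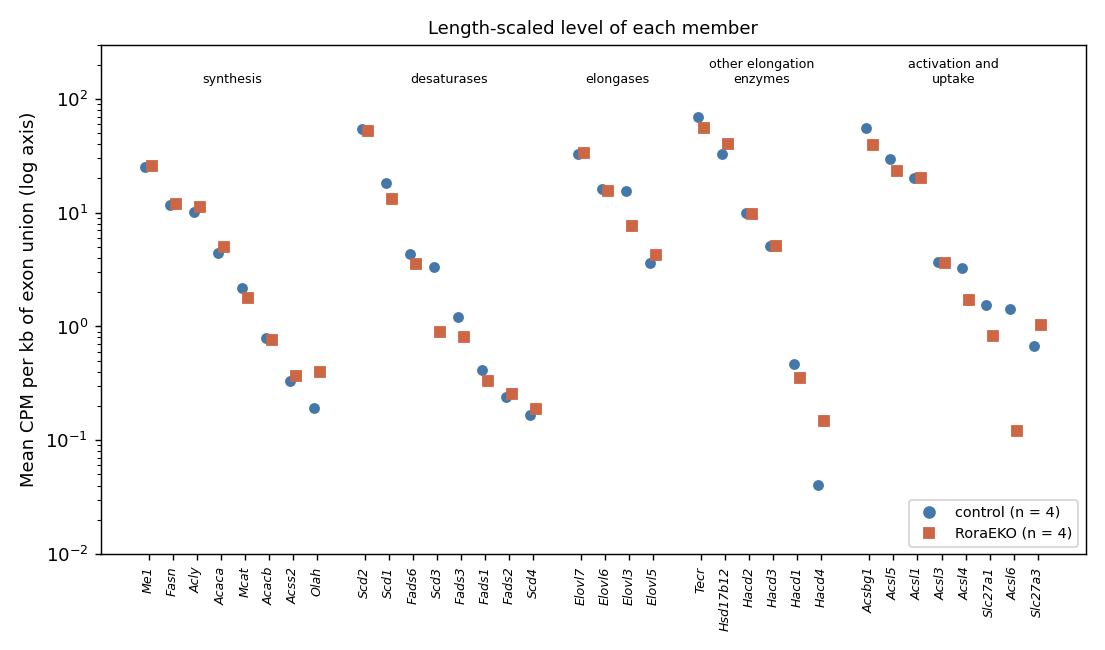
Mean CPM per kilobase of exon union (log axis) of the 34 tested genes, ordered within each role by the control mean. Circles are control and squares RoraEKO (n = 4 each), set slightly apart sideways. Most pairs lie close together on this axis, whose span makes small differences hard to see. The widest gap is that of *Acsl6* (11.8-fold), followed by *Scd3* (3.73-fold, not called) and *Hacd4* (3.63-fold).

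*Elovl3*, *Scd3* and *Fads3* were singled out after their values were seen, because control A1 was far above all other libraries in each. *Elovl3*, an elongase of sebaceous and hair follicle cells, stood at 97.9 CPM in A1 against 11.1 to 15.8 CPM in the other controls and 2.51 to 25.5 CPM in RoraEKO. *Scd3* stood at 31.2 CPM in A1 against 1.54 to 9.2 CPM in the other 7 libraries. *Fads3* stood at 15.3 CPM in A1 against 1.46 to 5.75 CPM elsewhere. The summed level of 8 sebocyte markers, of which the keratin *Krt79* made up 672 CPM in A1, was also highest in A1, at 907 CPM. It ran from 260.5 to 580.2 CPM in the other controls and from 164 to 717 CPM in RoraEKO, with none of the 8 called by edgeR, none under an unadjusted p of 0.05, and none called by DESeq2. Of the 8, *Mgst1* and *Mc5r* were highest not in A1 but in RoraEKO A3, at 18.7 and 3.92 CPM against 14 and 3.73 CPM in A1. Other marker sums were highest in A1 too. The 7 hair shaft markers summed to 8225 CPM in A1, 2341 to 3768 CPM in the other controls and 4146 to 7469 CPM in RoraEKO. The adipocyte sum stood at 398 CPM in A1, and *Cidea*, of the brown adipocyte list, at 51 CPM in A1 against 2.79 to 31.4 CPM elsewhere, while *Ucp1*, *Ppargc1a* and *Cox7a1* of that list were each at most 0.609 CPM in any library. Without A1, the log2 fold change of *Elovl3* went from -1.01 to 0.32 and that of *Scd3* from -1.92 to -0.81, with edgeR adjusted p of 0.816 and 0.458. That of *Fads3* went from -0.58 to 0.74 (edgeR adjusted p 0.359). The part of sebaceous, hair follicle or fat cells in these values was not tested. The chart of the sebocyte marker sum sets these values side by side.

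**Figure D5:**
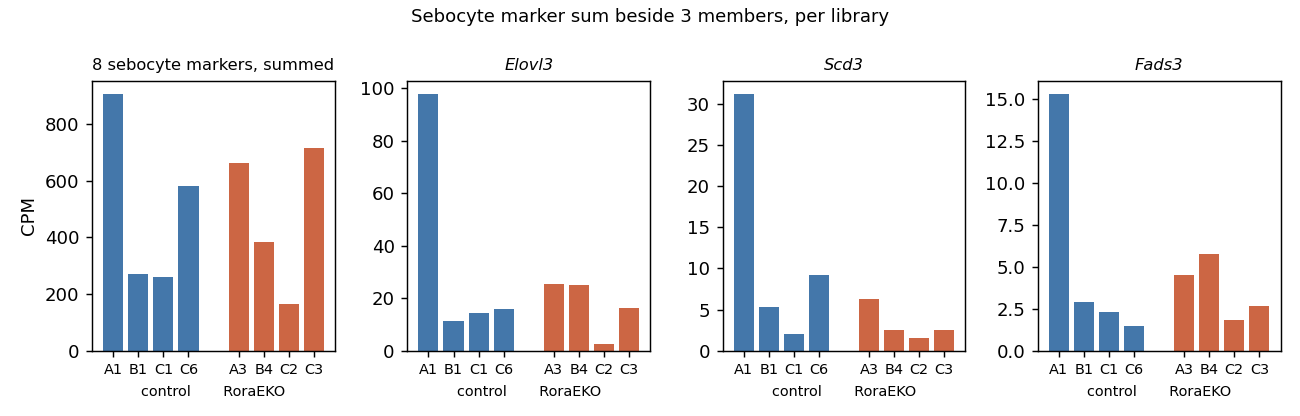
CPM in each library of 8 summed sebocyte markers and of *Elovl3*, *Scd3* and *Fads3*, with control bars at left and RoraEKO bars at right. Control A1 has the highest bar in all 4 panels (907, 97.9, 31.2 and 15.3 CPM), and C2 the lowest for the marker sum, *Elovl3* and *Scd3* (164, 2.51 and 1.54 CPM). The marker sum is mostly *Krt79* (672 of 907 CPM in A1 and 121 of 164 CPM in C2). The other libraries do not keep the same order in each panel. RoraEKO C3 has the next highest marker sum (717 CPM) but *Scd3* at only 2.55 CPM.

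Ordered by control level per kilobase, *Tecr* (69.6 CPM per kilobase) was followed by *Acsbg1* (55.1 ± 16.2) and *Scd2* (54.5 ± 18), which did not differ beyond their spread, and then by *Elovl7* (33.1), *Hsd17b12* (32.7) and *Acsl5* (29.7). The order below the first 3 genes depended on the length used, since with the longest transcript *Acsl1* moved from rank 8 to rank 4 (20.4 to 46.1 CPM per kilobase) and *Elovl7* from rank 4 to rank 8. The 4 called genes were all far lower on this scale, with *Acsl4* at 3.27, *Slc27a1* at 1.54, *Acsl6* at 1.42 and *Hacd4* at 0.0403 CPM per kilobase in controls.

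Of 29 other genes of the pathway, 23 were tested and none was called by edgeR, while 5 had an unadjusted p under 0.05 and DESeq2 called 2. Over all genes tested, 18.2% had an unadjusted p under 0.05 and DESeq2 called 7.84%, so both counts were near the background. Named after their values were seen, *Acsf3*, the mitochondrial malonyl-CoA synthetase, stood at 9.2 ± 0.368 CPM in controls and 6.38 ± 0.532 CPM in RoraEKO, under a 1.5-fold difference (log2 fold change -0.53, edgeR adjusted p 0.0417). *Fabp5*, the epidermal fatty acid binding protein, stood at 1343 to 1841 CPM in controls and 2305 to 5731 CPM in RoraEKO, with B4 the highest, and a log2 fold change of 1.01 (edgeR adjusted p 0.0957). Of 24 regulators of the pathway, 20 were tested and 1 was called, a share near the 5.51% of all genes tested. That gene, *Insig2*, which holds SREBP precursors in the endoplasmic reticulum, stood at 86.6, 96.3, 76.2 and 121 CPM in control A1, B1, C1 and C6 and at 49, 49.4, 64.5 and 64.1 CPM in RoraEKO A3, B4, C2 and C3. The genotypes did not overlap, and the log2 fold change was -0.74 (SE 0.18, edgeR adjusted p 0.0315). No regulator was called when A3, B1, B4, C2, C3 or C6 was left out or with the *Xist* covariate, and 2 were called without A1. *Srebf1*, the transcription factor that drives synthesis genes, had a log2 fold change of 0.08, and *Srebf2* one of 0.36 with an edgeR adjusted p of 0.164.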

How the data were processed

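Epidermal RNA of 8 samples was sequenced as stranded poly(A) libraries. Per the labels and the study's methods, the authors trimmed paired reads, mapped them to GRCm39 with STAR 2.5.3a and estimated counts per gene with RSEM. They deposited these expected counts for 55416 genes without normalization, and 2.99% of the values were not whole. The annotation release and the strand setting are not given in the sources used here. Each column was matched to its sample by title. Of the identifiers, 54749 matched GENCODE release 39, which gave symbols, positions and exon lengths.

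Counts were rounded, filtered with filterByExpr (13147 genes kept), scaled with TMM and tested by quasi-likelihood (legacy form) in edgeR 4.0.16 under R 4.3.3, RoraEKO against control without covariates. A call needed an adjusted p below 0.05 and more than 1.5-fold change. CPM used TMM-scaled library sizes. SE and 95% intervals belong to the difference of mean log2 CPM, computed with a prior count of 2, a pooled SD and 6 degrees of freedom, which need not equal the fitted log2 fold change. A floor of 3 counts equals 0.113 to 0.196 CPM and, like all such limits, covers counting error only. Values in all libraries were given for genes past the cutoffs, with an adjusted p below 0.1, or with genotypes that did not overlap. They were also given for the gene with the highest control level per kilobase in each role, and for *Fasn*, which met none of these conditions. Genes of the other pathway and regulator lists were named where past the cutoffs. *Srebf1*, *Srebf2*, *Elovl1* and *Elovl4* were named although not past them, and other exceptions are said to have been named later. Members and lists were chosen with earlier results of these data known. Alternatives were other scalings, filters, tests and cutoffs, DESeq2 1.42.0, the title letter as a block, the *Xist* level as a covariate, and each library left out. The fitting was tested on simulated data.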

Additional observations from a re-analysis of the deposited data

Results flagged for a closer look

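In groups of 4 libraries, the highest or lowest value was compared with its nearest neighbour relative to the range of the group, and 7 of 68 groups had a value set apart by more than Dixon's 95% limit, where about 1 in 20 (3.4 groups) would be by chance. Control A1 was set apart in 3 genes. *Elovl3* stood at 97.9 CPM in A1 and at 11.1 to 15.8 CPM in the other controls. *Fads3* stood at 15.3 CPM in A1 and at 1.46 to 2.9 CPM in the others, and *Fads6* at 36.2 CPM in A1 and 25.9 to 26.7 CPM in the others. *Acsbg1* stood at 520 CPM in control C6 and at 291 to 328 CPM in the other controls.

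Among RoraEKO libraries, *Fasn* stood at 172 CPM in B4 and at 127 to 134 CPM in the others. *Scd1* was set apart downwards in C2, at 60.9 CPM against 103 to 108 CPM. *Hacd1*, a dehydratase of the elongation cycle best known from muscle, stood at 1.7 CPM in A3 and at 0.822 to 0.915 CPM in the others. None of these genes was called by edgeR between genotypes.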

How the results depend on the processing

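None of the 4 called genes changed direction under the alternatives. The log2 fold changes of *Me1* (-0.05 to 0.15), *Scd2* (-0.22 to 0.23) and *Elovl7* (-0.08 to 0.10), never called, lay on both sides of 0, and that of *Acsbg1*, also never called, ran from -0.59 to -0.22. *Acsl4* was called under 20 of 21 alternatives, *Slc27a1* under 13 of 21, *Acsl6* under 12 of 20 and *Hacd4* under 10 of 20. The 3 genes called lower became 1 with the *Xist* level as a covariate and 0 without the 2 control libraries with *Xist*, and 1 to 3 when single libraries were left out. The single gene called higher became 0 with library size alone, with at least 10 counts in every library, with the *Xist* covariate and without the control libraries with *Xist*, and 0 to 1 when single libraries were left out. *Acsl6* and *Hacd4* were not tested with at least 10 counts in every library. Of the other pathway genes, 0 in the reported fit became 2 with DESeq2, 1 with the edgeR likelihood ratio test, 1 without a fold change cutoff, 1 at an adjusted p under 0.1, and 0 to 2 when single libraries were left out, 2 without A1. The 1 regulator became 0 with the *Xist* covariate and 0 without the control libraries with *Xist*, and 0 to 2 when single libraries were left out. The causes were not tested.

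With the title letter as a replicate block, 3 genes of the group were called lower and 1 higher, 1 other pathway gene and 1 regulator. Deviations of same-letter libraries correlated at 0.0498 (B1 and B4) to 0.483 (A1 and A3), all above 0, and those of different-letter libraries at -0.517 to 0.282. B4 correlated better with A1 than with B1, and the labels do not say what the letter marks, so it was not taken as pairing. Over all genes, the block called 579 lower and 420 higher, against 423 and 302. DESeq2 called 553 and 478, and the fit without the control libraries with *Xist* 167 and 147. With the longest transcript as length, control levels became 177 (*Tecr*), 81.5 (*Acsbg1*) and 36.6 (*Me1*) CPM per kilobase. *Hacd4* had 4 to 30 counts per library, and the effect of depth on it was not tested.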
